A study of Mus musculus with 36 samples.

Results

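Interferon-stimulated genes were measured in mouse pancreatic fibroblasts of strain C57BL/6, grown either alone or in direct contact with pancreatic tumour cells. The list held 45 gene symbols. Of these, 44 were found by symbol in the count table, which has 39017 genes, and 43 held at least 10 counts in at least 4 libraries. These 43 are the members described here, and they are among the 14439 genes tested. Epsti1 was found but never exceeded 3 counts in a library. Ifit3b was not found by that symbol, and its Ensembl identifier (ENSMUSG00000062488) stands in the table under the name I830012O16Rik, whose values are given apart.

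The 36 libraries fall into 9 groups of 4, and polyadenylated RNA was sequenced in each. Mono-culture is the fibroblasts alone, and the other 8 groups are fibroblasts after 48 h of direct co-culture with a tumour line, either one of the clones E, H, K, M, N, T and V or the line KPC1. The labels do not say what KPC1 is beyond its name, and each clone is a single clonal line. Co-cultured fibroblasts were separated by sorting on the GFP that the tumour cells carried. The labels give the mono-culture the same growth text as the co-cultures, and they do not say whether the 4 replicates of a group were separate cultures, so the p-values measure the spread between these libraries, which may be technical.

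Type I interferons bind the receptor pair IFNAR1 and IFNAR2, whose kinases JAK1 and TYK2 act on STAT2. STAT2 and IRF9 are parts of the complex ISGF3, which binds the interferon-stimulated response element (ISRE). Interferon gamma acts through IFNGR1, IFNGR2, JAK1 and JAK2, and its targets often carry the gamma-activated site (GAS). Many cells, fibroblasts among them, keep a low level of these target genes without infection, and the products sense foreign nucleic acid, block viral replication and feed back on the pathway.

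Sequencing depth lay between 12532122 and 21985538 counts per library (mean 18177806 ± 2418484, SD, n = 36). Summed fibroblast markers reached 10902 to 32116 CPM (counts scaled to library size and by edgeR's trimmed mean of M values), with none of 10 markers at 0 in a whole group. Summed epithelial markers (15 listed) were 2.89 to 3.52 CPM in mono-culture and 21.4 to 869 CPM in the co-cultures, and Epcam was at most 0.495 CPM in any library. The higher sums in co-culture came from part of the list. Krt8 averaged 0.0229 CPM in mono-culture and 19.5 to 156 CPM in the co-culture groups, and Krt18 0.161 and 54.2 to 281 CPM. Epcam and Cldn7 went the other way, with their highest group means in mono-culture (0.177 and 0.281 CPM). In each co-culture group, 7 to 9 of the 15 markers averaged under 1 CPM. Summed leukocyte markers stayed between 0.241 and 2.36 CPM and summed endothelial markers between 6.13 and 14.0 CPM. The share of counts from mitochondrial genes was lowest in mono-culture replicate 4, at 2.16%, and lay between 3.01% and 4.74% in the other libraries. The titles also carry a running number that puts the co-culture replicates 1 at 1 to 8, replicates 2 at 9 to 16, replicates 3 at 17 to 24, replicates 4 at 25 to 32 and the 4 mono-culture libraries last, at 33 to 36. What this number records is not stated, so the mono-culture and its place in that order cannot be told apart.

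The 5 stretches printed here, from the windows around the transcription starts of members, show the DNA elements that the interferon factors are known to bind. Sequences come from RefSeq's GRCm38.p6 annotation, are written 5′ to 3′ along the gene's strand, and have each match to the searched pattern in capitals. The ISRE core searched was GAAA, any 2 bases and GAAA, on either strand, and the GAS core was TTC, any 3 bases and GAA, which reads alike on both strands. Ifit1 (chr19:34640750-34640829, plus strand) is shown for its pair of ISRE cores, Isg15 (chr4:156200852-156200931, minus strand) for 3 overlapping ones, and Rsad2 (chr12:26456528-26456607, minus strand) and Gbp2 (chr3:142620569-142620648, plus strand) for a single one in the genes whose values are followed below. Irf1 (chr11:53769889-53769967, plus strand) is shown for a GAS core, which stood in 1 of its 2 windows.
Ifit1: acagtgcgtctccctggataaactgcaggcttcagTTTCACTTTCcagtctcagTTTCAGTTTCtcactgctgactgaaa
Isg15: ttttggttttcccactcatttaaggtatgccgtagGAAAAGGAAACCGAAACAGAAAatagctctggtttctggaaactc
Rsad2: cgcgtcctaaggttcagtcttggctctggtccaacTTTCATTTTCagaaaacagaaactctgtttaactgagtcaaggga
Gbp2: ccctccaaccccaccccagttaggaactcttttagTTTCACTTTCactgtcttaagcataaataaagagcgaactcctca
Irf1: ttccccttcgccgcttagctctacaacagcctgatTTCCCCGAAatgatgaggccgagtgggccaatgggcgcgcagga

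A window from 250 bases before to 50 bases after a start was found for 32 of the 43 members. The ISRE core was present for 16 of these 32 (50%), beside 1079 of the 27025 genes with a window (3.99%). The GAS core was present for 8 of 32 (25%), beside 2582 of all genes (9.55%). Both cores were found for 5 members, with overlapping matches in 1 of them, and neither for 13. The window of Irf7 held neither. A match of this kind is a description of the letters and was not measured as a binding site.

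Co-cultured fibroblasts held less RNA of nearly the whole list than fibroblasts grown alone. In the mean of the 8 co-cultures against mono-culture, 38 of 43 members were lower and 0 were higher, with a median log2 fold change of -1.32. Of all 14439 genes, 26.6% were lower and 26.1% higher in that comparison, with a median of 0.0069. The largest change was that of Cmpk2, a mitochondrial nucleotide kinase (log2 fold change -2.44, SE 0.28, adjusted p = 1.61e-08 by edgeR's quasi-likelihood test, 5.41-fold lower). All 43 estimates were negative, 40 of them at an unadjusted p under 0.05, and no member was higher by edgeR at that unadjusted level or by DESeq2 or limma at an adjusted p under 0.05. The 5 that did not pass were Ifih1, Trim25, Irf1, Lgals3bp and Mx1. In bulk RNA, fewer cells that use a gene and less of its RNA per cell cannot be told apart. Summed epithelial markers were higher in every co-culture library than in every mono-culture library, and their part in these differences was not tested.

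**Figure D1:**
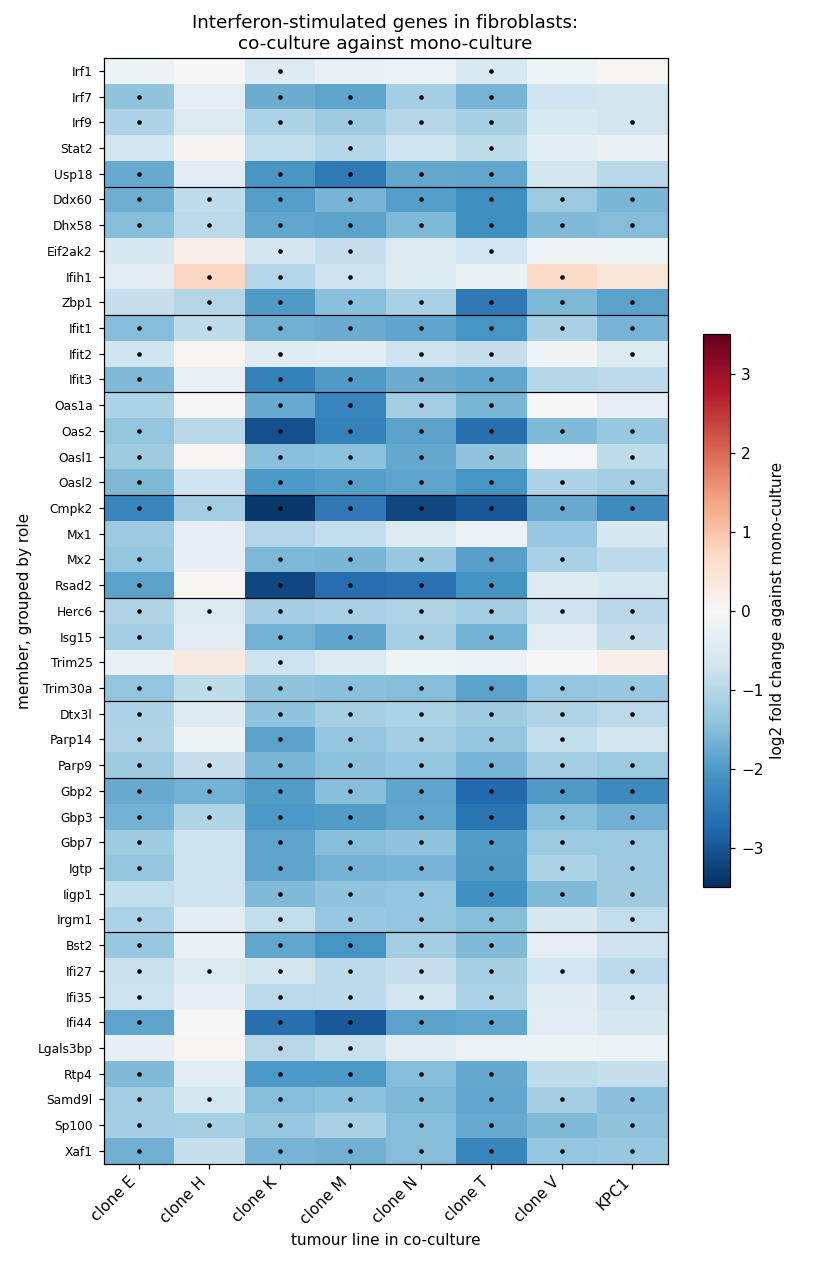
Log2 fold change of each of the 43 members (rows) with each of the 8 tumour lines (columns) against mono-culture, from edgeR's quasi-likelihood fit on all 36 libraries, with dots on the calls at an adjusted p under 0.05. Most cells are below 0, the columns of clones H, V and KPC1 are paler, and Ifih1 is called higher with clones H and V.

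The transcription factors and feedback members fell in 4 of 5 cases (median -0.91). Irf9, the DNA-binding part of ISGF3, measured 98.4, 75.1, 71.0 and 111 CPM in the mono-culture libraries, and 26.1 to 82.2 CPM with a median of 46.9 in the 32 co-culture libraries. In 29 of the 32 it lay below the lowest mono-culture library (log2 fold change -0.91, SE 0.17, adjusted p = 5.4e-05). Irf7, which amplifies interferon production, measured 92.4, 48.1, 53.9 and 115 CPM in mono-culture and 9.27 to 103 CPM in co-culture, with a median of 32.7 (-1.18, SE 0.29, adjusted p = 0.0012). Its groups overlapped more, with 25 of 32 co-culture libraries below the lowest mono-culture library. Stat2, a part of ISGF3, measured 207, 132, 129 and 217 CPM in mono-culture and 56.2 to 263 CPM in co-culture, with a median of 107 (-0.58, SE 0.22, adjusted p = 0.0303). That call was lost without mono-culture replicate 1 (-0.49) or replicate 4 (-0.44). Usp18, which removes ISG15 from proteins and dampens the receptor, fell (-1.48, SE 0.30, adjusted p = 0.000115). Irf1, a transcription factor that interferon gamma induces, measured 76.6, 67.3, 64.6 and 78.0 CPM alone and 42.6 to 96.8 CPM in co-culture, with a median of 61.9. It did not pass (-0.22, SE 0.096, adjusted p = 0.0578), with 20 of 32 libraries below and 3 above the mono-culture range.

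Among the sensors of foreign RNA and DNA, 4 of 5 fell (median -1.55). Ddx60 (-1.64), Dhx58 (-1.61) and Zbp1 (-1.55), which encode a helicase, the RIG-I-like receptor LGP2 and a sensor of Z-form nucleic acid, fell the most. Eif2ak2, the kinase PKR that shuts down translation on double-stranded RNA, measured 137, 93.3, 97.0 and 171 CPM in mono-culture and 53.4 to 175 CPM in co-culture, with a median of 85.0. It passed narrowly (-0.41, SE 0.17, adjusted p = 0.035), and the call was lost without mono-culture replicate 1 (-0.38) or replicate 4 (-0.22). Ifih1, the RNA receptor MDA5, stood apart from the list. It measured 61.2, 47.3, 45 and 77.1 CPM in mono-culture and 25.3 to 121 CPM in co-culture with a median of 49.3, and lay below the mono-culture range in 13 libraries and above it in 9. The mean difference of Ifih1 was -0.12 (SE 0.17, adjusted p = 0.572), and it turned to 0.0473 without mono-culture replicate 4.

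Proteins of the IFIT family bind foreign RNA, and 3 of 3 measured members fell (median -1.45). Ifit1 measured 178, 128, 119 and 219 CPM in mono-culture, and 21.4 to 123 CPM in co-culture with a median of 50.7. Only 1 of the 32 co-culture libraries reached the mono-culture range (log2 fold change -1.57, SE 0.18, adjusted p = 3.28e-08, 2.96-fold lower). Ifit3 measured 114, 68.1, 68.4 and 147 CPM in mono-culture and 9.27 to 145 CPM in co-culture, with a median of 31.5 (-1.45, SE 0.33, adjusted p = 0.000562). The spread of Ifit3 among co-cultures was far wider than that of Ifit1. Ifit2 fell by less (-0.45, SE 0.11, adjusted p = 0.000851). Ifit3 shares 40.7% of its 76-base windows with Ifit3b, so reads of the pair may be split or lost in counting. The row that holds the Ensembl gene of Ifit3b measured 42.9, 22.1, 25.2 and 54.9 CPM in mono-culture and was also lower in the mean co-culture (-1.39, SE 0.35, adjusted p = 0.00132).

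The 2′-5′-oligoadenylate synthetase family, whose products switch on RNase L or act on RNA sensing, fell in 4 of 4 cases (median -1.29). Oasl2 measured 204, 116, 111 and 247 CPM in mono-culture and 16.5 to 158 CPM in co-culture, with a median of 54.5 (-1.55, SE 0.25, adjusted p = 7.33e-06). Oas2 measured 26.2, 9.96, 8.75 and 28 CPM in mono-culture and 1.01 to 19.6 CPM in co-culture, with a median of 4.43 (-1.89, SE 0.33, adjusted p = 2.24e-05). Mono-culture replicates 1 and 4 were the high libraries for both genes. Oas1a (-1.03, adjusted p = 0.00669) shares 47.3% of its 76-base windows with Oas1g, and its value is uncertain for that reason. The call of Oas1a was also lost without mono-culture replicate 4.

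Of the group with the Mx GTPases, viperin and its neighbour, 3 of 4 fell (median -1.47). Rsad2 encodes viperin, which makes a chain-terminating nucleotide, and Cmpk2 lies next to it on chromosome 12 (chr12:26442746-26456452 and chr12:26469204-26479837, GRCm38, on opposite strands). Rsad2 measured 18.1, 12.7, 10.3 and 20.1 CPM in mono-culture and 0.955 to 25.7 CPM in co-culture, with a median of 3.66 (-1.68, SE 0.25, adjusted p = 2.12e-06). Cmpk2 measured 12.6, 7.59, 8.21 and 21.8 CPM in mono-culture and 0.650 to 7.69 CPM in co-culture, with a median of 2.05. All but 1 of the 32 co-culture libraries lay below the mono-culture range for Cmpk2, and 25 did so for Rsad2. Mx2, an antiviral GTPase, measured 16.95, 9.57, 10.04 and 16.3 CPM in mono-culture and 1.29 to 17.3 CPM in co-culture, with a median of 4.91 (-1.26, SE 0.28, adjusted p = 0.000325). Mx1 was the weakest of the list per length, ranked last of 43 in mono-culture at 0.353 RPKM (reads scaled to gene length and to library size), and its estimate did not pass (-0.77, SE 0.47, adjusted p = 0.17).

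ISG15 is a ubiquitin-like protein, and with the ubiquitin ligases of the list 3 of 4 members fell (median -1.06). Isg15 (chr4:156199424-156200818, GRCm38) measured 116, 64.6, 66.8 and 141 CPM in mono-culture and 14.5 to 117 CPM in co-culture, with a median of 38.0. It lay below the mono-culture range in 25 of 32 co-culture libraries (log2 fold change -1.14, SE 0.22, adjusted p = 7.67e-05, 2.20-fold lower). Trim30a (-1.40) and Herc6, the mouse ligase for ISG15 (-0.98), fell as well. Trim25, the ligase that acts on RIG-I, measured 120, 101, 96.4 and 145 CPM in mono-culture and 59.1 to 180 CPM in co-culture, with a median of 102 (-0.16, SE 0.15, adjusted p = 0.408). The PARP9, DTX3L and PARP14 group, ADP-ribosyl transferases and a partner ligase, fell in 3 of 3 cases (median -1.08). Parp9 measured 90.3, 64.0, 68.1 and 96.1 CPM in mono-culture and 18.1 to 68.4 CPM in co-culture, with a median of 30.6 (-1.32, SE 0.18, adjusted p = 5.84e-07). Exons of Parp9 and Dtx3l overlap on opposite strands over 458 bases, and the sources used here do not say whether the counting used strand.

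The guanylate-binding and immunity-related GTPases, which attack the vacuoles of intracellular pathogens and answer strongly to interferon gamma, fell in 6 of 6 cases (median -1.43). Gbp2 (chr3:142620602-142638008, GRCm38) measured 70.0, 52.9, 42.2 and 81.7 CPM in mono-culture and 5.05 to 35 CPM in co-culture, with a median of 15.7. No co-culture library reached the lowest mono-culture library (log2 fold change -1.95, SE 0.22, adjusted p = 1.31e-08, 3.87-fold lower). Gbp3 measured 89.3, 45.7, 47.8 and 127 CPM in mono-culture and 5.56 to 64.5 CPM in co-culture, with a median of 19.7 (-1.78, SE 0.28, adjusted p = 5.55e-06). Irgm1, which regulates the other members of its family, measured 120, 95.4, 82.4 and 164 CPM in mono-culture and 27.1 to 122 CPM in co-culture, with a median of 53.0 (-0.99, SE 0.20, adjusted p = 0.000147). Igtp (-1.44), Gbp7 (-1.41) and Iigp1 (-1.35) fell by amounts between these.

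Among the other effectors, 8 of 9 fell (median -1.35). Bst2, the virion tether, was the highest member per length in mono-culture, at 227 ± 84 RPKM (SD, n = 4). It measured 201, 115, 127 and 242 CPM in mono-culture and 23.5 to 252 CPM in co-culture, with a median of 68.8 (-1.16, SE 0.27, adjusted p = 0.000701). Sp100, a nuclear body protein, measured 55.5, 41.2, 44.0 and 76.7 CPM in mono-culture and 9.67 to 41.2 CPM in co-culture (-1.38, SE 0.21, adjusted p = 2.42e-06). It joined Gbp2 as the members for which 32 of 32 co-culture libraries lay below the mono-culture range. Genes separated in this way were not counted over all genes tested, of which 14.6% had all 4 clone K libraries below mono-culture. Lgals3bp, a secreted glycoprotein, measured 279, 217, 206 and 349 CPM in mono-culture and 105 to 354 CPM in co-culture, with a median of 203, and did not pass (-0.37, SE 0.16, adjusted p = 0.0535). Xaf1 (-1.53), Ifi44 (-1.51), Rtp4 (-1.38), Samd9l (-1.35), Ifi27 (-0.81) and Ifi35 (-0.72) fell.

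**Figure D2:**
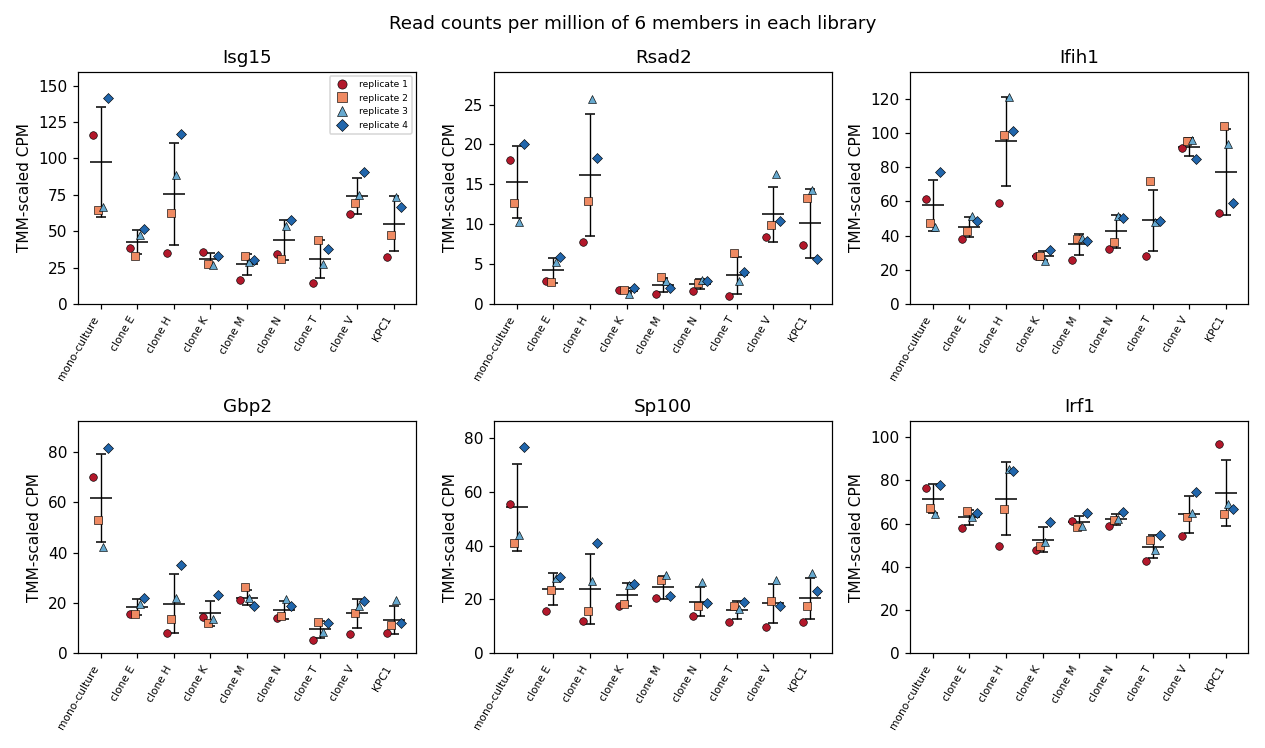
CPM of Isg15, Rsad2, Ifih1, Gbp2, Sp100 and Irf1 on linear axes, with the 9 groups along the horizontal axis, 1 point per library shaped by replicate number, and each group's mean and SD (n = 4). Gbp2 has no co-culture point as high as its lowest mono-culture point of 42.2 CPM, whereas Rsad2 with clone H (7.78 to 25.7 CPM) spans its mono-culture range of 10.3 to 20.1 CPM.

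The size of the difference depended on the tumour line. Against mono-culture, clone K gave 41 members lower and 0 higher (median -1.61, beside 8.69% of all genes lower and 10.4% higher), clone M 39 and 0 (-1.47, beside 10.8% and 12.2%), and clone T 39 and 0 (-1.76, beside 24.7% and 25%). Clone N gave 36 lower and 0 higher (-1.35, beside 19.2% and 19.7%) and clone E 33 and 0 (-1.25, beside 15.5% and 16.5%). In KPC1 26 were lower and 0 higher (-0.92, beside 28.5% and 30.5%), and with clone V 22 were lower and 1 higher (-0.88, beside 28.9% and 29.4%). Clone H stood lowest in the count, with 13 lower and 1 higher (-0.41, beside 26.4% and 27.8%), so the share lower was near that of all genes. Its total of 14 calls moved with single libraries, to 6 without mono-culture replicate 4, 5 without clone H replicate 1 and 7 without clone H replicate 2. The members' counts did not rise with the number of genes changed. Clones K and M had the fewest genes changed and 41 and 39 members lower. Clones H, V and KPC1 had the most genes changed and the fewest members lower, at 13, 22 and 26. Clone T had many more genes changed than clones K and M, and also 39 members lower. The 8 comparisons share the mono-culture libraries. Summed epithelial markers were 75.6 to 278 CPM with clone H, 36.7 to 237 with clone V, 21.4 to 317 with clone K and 315 to 869 with clone T, and their part in the differences between lines was not tested.

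Counting libraries gave a like order of the lines, except that clone V and KPC1 changed places. All 4 libraries of clone K lay below the lowest mono-culture library for 41 members. The same number was 40 for M, 38 for T, 34 for N, 32 for E, 20 for V, 19 for KPC1 and 2 for H. Over all genes tested, the share with 4 libraries below mono-culture was 14.6% for clone K, 16.9% for M, 24.9% for T, 20.4% for N, 19.1% for E, 26.4% for V, 26.2% for KPC1 and 25.3% for H. Lower calls in at least 5 of the 8 lines were made for 35 members and in 8 of 8 for 12, namely Cmpk2, Ddx60, Dhx58, Gbp2, Gbp3, Herc6, Ifi27, Ifit1, Parp9, Samd9l, Sp100 and Trim30a. Without clone H replicate 1, 4 of these 12 kept the call with clone H, namely Gbp2, Ifi27, Ifit1 and Sp100. A further 6 members were lower with every line except clone H. These counts over several lines were not made over all genes. The share of all genes lower in 8 of 8 lines cannot exceed the 8.69% lower with clone K.

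**Figure D3:**
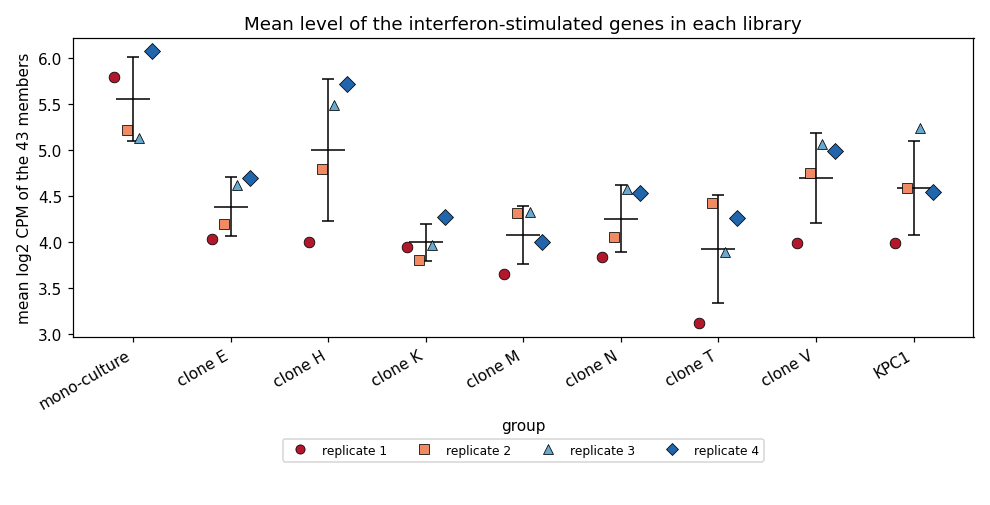
Mean log2 CPM over the 43 members in each library (vertical axis), with 1 point per library shaped by replicate number, the 9 groups along the horizontal axis, and each group's mean and SD (n = 4). Mono-culture libraries lie between 5.13 and 6.07, and the clone H libraries spread from 3.998 to 5.71.

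The mean log2 CPM of the 43 members showed the spread within groups. Mono-culture libraries stood at 5.79, 5.22, 5.13 and 6.07 (5.56 ± 0.45, SD, n = 4), and those of clone T at 3.11, 4.43, 3.89 and 4.26 (3.92 ± 0.58). Clone K was the tightest group at 3.95, 3.80, 3.96 and 4.27 (3.996 ± 0.20). Clone H was the widest, at 3.998, 4.79, 5.49 and 5.71 (4.998 ± 0.77), so that its replicate 1 lay among the libraries of the other lines and its replicates 3 and 4 lay inside the mono-culture range. In clone H replicate 1, 42 of 43 members were below the lowest mono-culture library and 0 above the highest, beside 38.1% and 39.4% of all genes. In clone H replicate 4 these numbers were 4 and 10, beside 36.8% and 39.6% of all genes, so both were smaller shares than those of all genes. Clone V averaged 4.70 ± 0.49, KPC1 4.59 ± 0.51, clone E 4.38 ± 0.32, clone N 4.25 ± 0.36 and clone M 4.07 ± 0.32 (SD, n = 4 each). Neighbours in the order of these means differed by less than the larger of their SDs.

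Gbp2, Rsad2 and Isg15 are given by line as examples chosen after their values were seen. With clone H, Gbp2 measured 7.96, 13.7, 21.9 and 35 CPM, each below the mono-culture libraries (log2 fold change against mono-culture -1.65, SE 0.34, adjusted p = 0.000188). It measured 5.05, 12.3, 8.25 and 12.2 CPM with clone T, 14.5, 12.1, 13.7 and 23.2 CPM with clone K and 7.48, 16.1, 18.9 and 20.8 CPM with clone V. Gbp2 was thus low with each of these lines. Rsad2 measured 7.78, 12.9, 25.7 and 18.3 CPM with clone H, around the mono-culture values (0.08, SE 0.37, adjusted p = 0.872), and 8.44, 9.92, 16.3 and 10.4 CPM with clone V (-0.45, adjusted p = 0.317). With clone K it measured only 1.70, 1.69, 1.27 and 1.98 CPM. Isg15 measured 34.8, 62.2, 88.4 and 117 CPM with clone H (-0.36, SE 0.32, adjusted p = 0.351), 61.6, 69.3, 75.0 and 90.9 CPM with clone V (-0.39, adjusted p = 0.305) and 35.7, 27.6, 26.8 and 33 CPM with clone K.

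Ifih1 was the member called higher with clones H and V. It measured 59.1, 99.0, 121 and 101 CPM with clone H (log2 fold change against mono-culture 0.72, SE 0.23, adjusted p = 0.00999) and 91.3, 95.6, 96.0 and 84.9 CPM with clone V (0.67, SE 0.23, adjusted p = 0.0143). Clone V is the line in which 4 of 4 libraries lay above the highest mono-culture library of 77.1 CPM. The call with clone H was lost without clone H replicate 3. With clone K the same gene measured 27.8, 27.9, 25.3 and 31.6 CPM, below 4 of 4 mono-culture libraries. It was also called lower with clone M, but not without mono-culture replicate 4 or clone M replicate 1.

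A test across the 8 co-cultures asked directly whether the lines differed. It was passed by 32 of 43 members, beside 72.0% of all genes, a share near that of the list. By role, 5 of 5 transcription factors and feedback members, 4 of 4 of the OAS family and 3 of 3 IFIT members passed, but 2 of 6 GTPases and 1 of 3 of the PARP group. The smallest adjusted p was that of Oasl1 (1.93e-08), followed by Rsad2 (2.52e-08) and Ifih1 (1.13e-07). Gbp2 (adjusted p = 0.0798), Gbp3 (0.144), Parp9 (0.133) and Sp100 (0.56) did not pass, which does not show that the lines acted alike on them.

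Clone H was the line that stood out against the mean of the other 7. With it 34 of 43 members were higher and 0 lower (median 0.78), beside 15.6% of all genes higher and 12.7% lower. Rsad2 (2.01, SE 0.25, adjusted p = 2.52e-06), Ifi44 (1.70, adjusted p = 0.000489), Cmpk2 (1.40, adjusted p = 0.00113), Ifit3 (1.37, adjusted p = 0.00346) and Oasl1 (1.25, adjusted p = 3.45e-06) were among them. Clone H had the highest mean of the 8 lines for 33 members, a count that was not made over all genes. The count of 34 members higher rested in part on 2 libraries, since it was 18 without clone H replicate 3 and 10 without clone H replicate 4. Clone V had 9 members higher and 0 lower (beside 23.2% and 23.1%), so the share higher was near that of all genes. Rsad2 stood at 1.41 (adjusted p = 8.09e-05) and Oasl1 at 1.12 (adjusted p = 2.73e-06) with clone V. Its count was 5 without clone V replicate 3, 15 without clone V replicate 1 and 14 without either clone H replicate 4 or KPC1 replicate 3. With KPC1, 5 members were higher and 0 lower (beside 22.3% and 18.8%), namely Ifih1, Ifi44, Irf1, Trim25 and Rsad2, and the count was 3 without KPC1 replicate 2. Clone E had 1 higher, Zbp1 at 0.85, and 0 lower (beside 5.85% and 4.42%). No member was higher with clones K, M, N or T against the other lines.

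Members lower than with the other lines numbered 11 with clone K (beside 22.9% of all genes lower and 24.2% higher) and 9 with clone M (beside 23.3% and 24.8%). For both clones the share of members lower was near that of all genes. Members lower numbered 4 with clone T (beside 2.00% and 4.66%) and 2 with clone N (beside 5.91% and 8.11%), where the share lower was also near that of all genes for clone N. With clone K the largest was Rsad2 (-1.74, SE 0.36, adjusted p = 0.000258), and Ifih1 (-1.04, adjusted p = 6.8e-05) and Trim25 (-0.64, adjusted p = 0.00198) were lower as well. With clone M the list held Ifi44 (-1.64), Oas1a (-1.45), Rsad2 (-1.14), Usp18 (-1.12) and Bst2 (-1.04). Zbp1, Irf1, Ifi27 and Ifit2 were those lower with clone T, and Oasl1 and Rsad2 those lower with clone N. These counts are small and moved with single libraries, to 5 for clone K without its replicate 2 or 3, to 3 for clone M without its replicate 1, to 0 for clone T without its replicate 1 or 3, and to 1 for clone N without any of its replicates. Clone T had the lowest group mean of the 8 lines for 22 members, clone M for 10 and clone K for 9, counts that were not made over all genes.

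Libraries with the same replicate number shared a difference in these genes. In a fit with group and replicate number, 31 of 43 members differed by number, beside 27.4% of all genes. In the co-cultures, replicate 1 had the lowest mean deviation from the group means for 43 of 43 members, against 21.1% of all genes. The members' median log2 deviation was -0.52 in replicate 1, -0.0031 in replicate 2, 0.30 in replicate 3 and 0.24 in replicate 4. Mono-culture did not share the order, with median deviations of 0.20, -0.33, -0.43 and 0.53. Ifit3 (-1.03 in replicate 1, adjusted p of the number 0.00275), Usp18 (-0.88, adjusted p = 0.00523) and Rtp4 (-0.88, adjusted p = 0.00108) deviated the most of the members that passed. The call for number was made for 6 of 6 GTPases, 3 of 3 of the PARP group and 1 of 4 of the OAS family. Those of Gbp7 and Parp14 were each lost in 26 of the 36 fits that left out 1 library, and that of Gbp2 in 6. Oas2 was not called (adjusted p = 0.149), though it deviated by -0.81 in replicate 1. The mean over the members was lowest in replicate 1 in 7 of the 8 lines. Median depth of the co-culture libraries was 19742099 counts in replicate 1 and 17530875 in replicate 4. The labels give no date or batch for these numbers, and what they share was not tested.

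**Figure D4:**
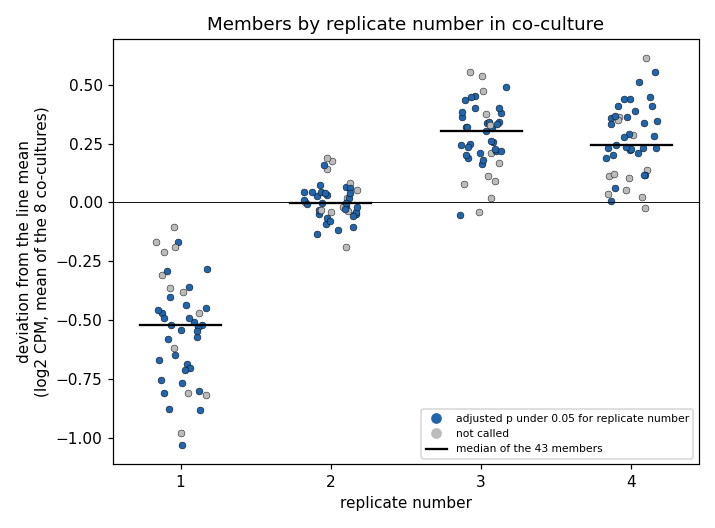
Deviation of the 43 members from their group means, on the log2 scale, averaged over the 8 co-cultures, for the 4 replicate numbers on the horizontal axis, with 1 point per member, bars at the medians and the members called for replicate number in blue. The points of replicate 1 lie below 0 for 43 of 43 members (median -0.52), and those of replicates 3 and 4 lie mostly above it (0.30 and 0.24).

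The lines were also set side by side within each replicate number, although the numbers were not treated as pairs. In the mean over the members, clone H was above the mean of the other lines in 4 of 4 numbers, by 0.20, 0.49, 0.96 and 1.24 on the log2 scale. Clone V was also above in 4 of 4, by 0.20, 0.44, 0.48 and 0.42. KPC1 differed from the mean of the others by 0.20, 0.25, 0.67 and -0.094. In number 1, clone E was the highest line, at 0.24 above the mean of the others.

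Other genes of the interferon pathway were examined by role, from a list of genes outside the 43. No ligand was measurable. Of 20 interferon genes listed, 18 were in the table, and none exceeded 3 counts in any library. Ifnb1 had 11 counts in all, spread over 7 libraries, and Ifng had 0. The 84 other pathway genes that were tested gave 45 lower and 12 higher in the mean co-culture, beside 26.6% and 26.1% of all genes. Of the 45, 36 came from 1 role, the other interferon targets.

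No interferon receptor was called lower. Of the 6 tested 3 were higher, on a background of 26.1% of all genes, namely Ifngr1 (log2 fold change 0.50, SE 0.068, adjusted p = 4.22e-07), Ifngr2 (0.25, adjusted p = 0.0139) and Ifnlr1, the receptor of type III interferon (2.70, SE 0.61, adjusted p = 0.000434). Ifnlr1, which epithelial cells are known to express, held only 6, 9, 0 and 7 counts in the mono-culture libraries and 4 to 118 in the co-culture libraries. The part of tumour transcripts in its higher counts was not tested. The type I receptor chains gave 0.12 for Ifnar1 (adjusted p = 0.0527) and 0.12 for Ifnar2 (adjusted p = 0.204).

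Of the 3 receptor kinases tested, 2 rose, beside 26.1% of all genes higher. Jak2 rose (0.97, adjusted p = 3.79e-08), from 66.3 to 73.5 CPM in mono-culture to 86.7 to 235 CPM in co-culture, with no overlap. Jak1 rose by 0.29 (adjusted p = 0.000316), and Tyk2 gave -0.13 (adjusted p = 0.276).

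Upstream sensors and adaptors fell in 3 of 9 cases, a share near the 26.6% of all genes, the double-stranded RNA receptor Tlr3 (-1.13), the RIG-I gene Ddx58 (-0.73) and Tlr4 (-0.58). Of the kinases and IRFs that act upstream of interferon, Irf8 (-0.83) and Tbk1 (-0.17) fell while Irf5 (0.65) and Irf2 (0.34) rose, of 6, which is also not far from the shares of all genes. Negative regulators fell in 4 of 8 cases, Ptpn6 (-1.09), Adar (-0.53), Socs1 (-0.30) and Irf2bp1 (-0.18), and Ptpn2 rose (0.29). These stand beside 26.6% of all genes lower and 26.1% higher.

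Further interferon targets outside the 43 fell in 36 of 52 cases and rose in 4, beside 26.6% of all genes lower and 26.1% higher. Like the members, these genes were listed with earlier results of these data known. The immunity-related GTPases Tgtp1 (-2.23), Ifi47 (-1.91) and Irgm2 (-1.75), the guanylate-binding Gbp6 (-1.76) and Ifi27l2a (-1.94) were among the largest. The chemokine Ccl5 fell (-0.79), whereas Cxcl10 (-0.38, adjusted p = 0.224) and Cd274, which encodes PD-L1 (-0.29, adjusted p = 0.203), did not pass. Those that rose were Ifi202b, Ifitm1 (1.39), Pnpt1 (0.29) and Ifi204 (0.28). Ifi202b held 0, 0, 1 and 0 counts in the mono-culture libraries and 8 to 533 in co-culture, so its fitted fold depends on the prior count. Ifitm1 rested on a few lines, at 2.04 to 3.25 CPM in mono-culture, 53.2 to 85.6 CPM with clone N and 0.46 to 1.5 CPM with clone V. The part of tumour transcripts in the higher values was not tested.

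**Figure D5:**
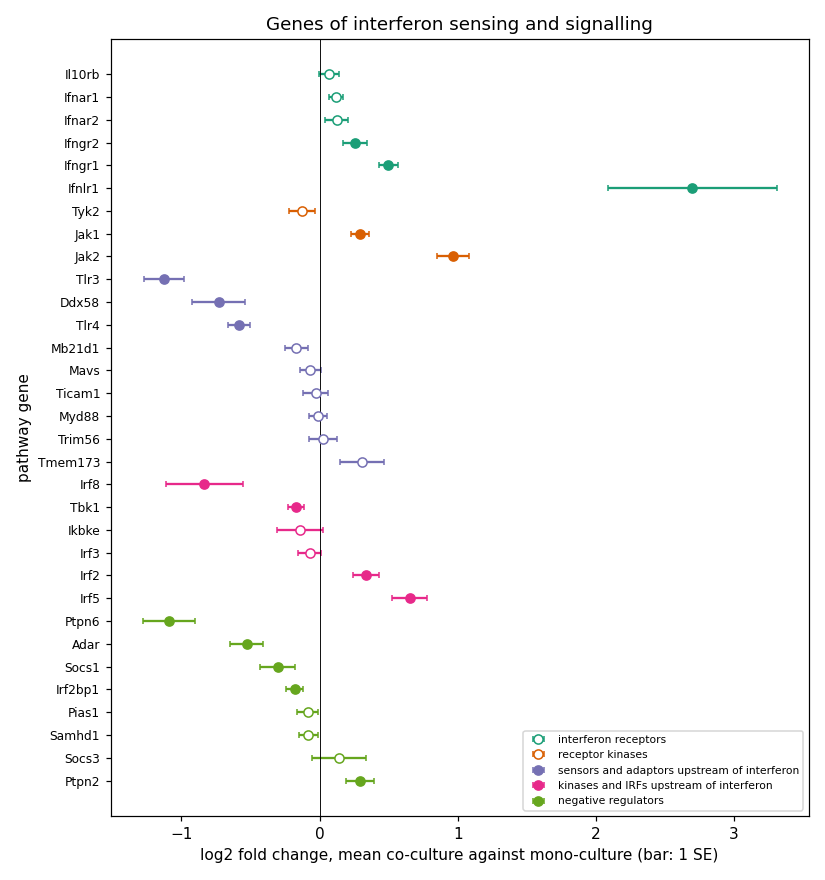
Log2 fold change of the receptors, signalling kinases, sensors and regulators tested (vertical axis, coloured by role) in the mean co-culture against mono-culture, with bars of 1 SE and filled points for the calls at an adjusted p under 0.05. Receptors lie above 0, and Jak2 (0.97) is the highest of the receptor kinases.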

How the data were processed

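The authors deposited a table of raw read counts per gene and a table of RPKM values (reads scaled to gene length and library size). The submitters' processing notes name STAR, featureCounts, edgeR and the build mm10, without versions. The annotation and the strand setting of the counting are not given in the sources used here. The libraries were strand specific. From the deposited counts, edgeR 4.0.16 in R 4.3.3 was used with TMM scaling, its default filter on low counts over the 9 groups (14439 genes kept, 43 of them members), robust quasi-likelihood fits on all 36 libraries and Benjamini-Hochberg adjustment over all genes tested, with a threshold of 0.05. The tests were the mean co-culture against mono-culture, each line against mono-culture, an F-test among lines, each line against the mean of the other 7, and an F-test of replicate number beside group. The script was tested on simulated data first.

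Log2 CPM used a prior count of 1. RPKM served for ranks between genes and for limma 3.58.1 on log2(RPKM + 1) and log2(RPKM + 0.1). Further alternatives were DESeq2 1.42.0, other scalings and filters, subsets of libraries and a block on replicate number. Members and gene lists were chosen with earlier results of these data known. Values in every library are given for the member of each role with the highest mean RPKM, for Irf1, Irf7, Irf9, Stat2, Isg15, Ifit1, Ifit3, Rsad2 and Cmpk2, and for the 5 members with the lowest and the 5 with the highest fold change. Sp100, and the members picked out by line, were named after their values were seen. No pair of libraries agreed within sampling noise (smallest chi-square per degree of freedom 5.63 over 54 pairs within groups), so each was counted once. Positions are from GENCODE M21 (GRCm38). One pathway gene is not reported here.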

Additional observations from a re-analysis of the deposited data

Results flagged for a closer look

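Among groups of 4 libraries, 2 of 198 sets of values held a library whose gap to the nearest other exceeded Dixon's 95% critical value, where chance gives about 9.9. Ifih1 with clone M measured 25.5 CPM in replicate 1 against 38.0, 38.7 and 36.9 CPM, a gap of 0.861 of the range. Irf1 with KPC1 measured 96.8 CPM in replicate 1 against 64.3, 69.0 and 66.6 CPM, a gap of 0.855 of the range.

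The effect of co-culture differed among the 8 lines for 32 of the 43 members, by the F-test on 7 contrasts in edgeR, a share near that of all genes (72.0%). The members with values in every library that passed it were, by adjusted p, Rsad2 (2.52e-08), Ifih1 (1.13e-07), Isg15 (0.000367), Bst2 (0.000748), Trim25 (0.000964), Cmpk2 (0.0013), Irf1 (0.00222), Eif2ak2 (0.00249), Lgals3bp (0.00346), Ifit1 (0.00747), Ifit3 (0.0079), Irgm1 (0.00985), Oasl2 (0.0105), Irf7 (0.0133), Oas2 (0.0145), Mx2 (0.0229), Stat2 (0.0265) and Irf9 (0.0277). Of these, Ifih1 was called higher than mono-culture with clones H and V and lower than it with clones K and M (with clone H not without its replicate 3, with clone M not without its replicate 1 or mono-culture replicate 4).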

How the results depend on the processing

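The 38 lower members of the mean co-culture stayed between 35 and 40 when any library was left out, with 0 higher throughout. The corresponding ranges against mono-culture were 26 to 35 for clone E, 5 to 21 for clone H, 35 to 42 for clone K, 34 to 40 for clone M, 30 to 36 for clone N, 37 to 39 for clone T, 18 to 24 for clone V and 21 to 31 for KPC1. They were 24 to 40 for the difference among lines and 25 to 36 for replicate number. For each line against the others they were 0 to 1 for clone E, 10 to 40 for clone H, 5 to 14 for clone K, 3 to 12 for clone M, 1 to 3 for clone N, 0 to 5 for clone T, 5 to 15 for clone V and 3 to 7 for KPC1. The median changed sign for clone E against the others without its replicate 1 or 2 (0 called), for clone N without its replicate 1 (1) and for KPC1 without its replicate 3 (4).

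The replicate numbers were not treated as pairs, since no line and mono-culture had every correlation of deviations above 0.1 (0 of 8, from -0.582 to 0.461), and 3 of 28 pairs of lines did (-0.519 to 0.693). With a replicate block, the mean co-culture called 41 members, clone H against mono-culture 22 in place of 14, and the lines against the others 15 for clone M, 4 for clone N, 11 for clone T, 17 for clone V and 9 for KPC1.

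Clone H against mono-culture called 8 with only the 8 libraries compared. Limma on log2(RPKM + 1) called 21 for the difference among lines, 0 for clone E, 7 for clone K and 3 for KPC1 against the others, and on log2(RPKM + 0.1) it called 0 for clone E and 21 for clone H. Without a filter on low counts, clone E called 0 and clone N 1.

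Leaving out 1 replicate number in every group was chosen after seeing the data. Without number 1, clone H against mono-culture called 6, replicate number 9, and clones E, K, M and T against the others 0, 21, 14 and 2. Without number 2, clone H against mono-culture called 7, clone E 0 with its median reversed, clone K 5, clone N 1 and KPC1 2. Without number 3 the difference among lines called 16, and clones E, H, K, N, T and V and KPC1 against the others called 0, 19, 5, 1, 0, 5 and 3. Without number 4 the difference among lines called 14, replicate number 10, and clones E, H, K, M, N and T against the others 0, 11, 6, 5, 1 and 1. The Ifih1 log2 fold change in the mean co-culture against mono-culture ranged from -0.21 to 0.0473 when a library was left out, and it turned to 0.0068 without number 1, 0.0247 without number 4 and 0.0473 without mono-culture replicate 4. Irf1 and Lgals3bp passed the test under several settings. The cause of these changes was not tested. Depth limits Mx1 and the interferon ligands, with few or no counts.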
